A study of Mus musculus with 6 samples.

Results

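The genes described here encode the Fc receptors and Fc receptor-like proteins Fcgr1, Fcgr2b, Fcgr3, Fcgr4, Fcer1g, Fcgrt, Fcrls, Fcrla and Fcrl1. They were taken from a list of gene symbols, and all 9 were found among the 23946 gene rows of the deposited table. The table gives FPKM, the number of sequenced fragments of a gene scaled to the length of its transcripts and to the size of the library. All 9 reached an FPKM of 1 in 1 library or more, as did 13064 genes of the table (the expressed genes below), so none was lost to the filter on low values. The cells were macrophages sorted as CD45+CD11b+F4/80+ from 2 tissues of C57BL/6 mice, mesenteric adipose tissue (MY) and omentum (OM). The study's methods describe the mice as young adult females. Macrophages were taken from naive mice, and 24 h and 7 d after an intraperitoneal injection of ID8, a mouse ovarian cancer line of C57BL/6 origin. The series design gives 9 mice in 3 groups of 3, and the table holds 1 library for each tissue and time (OM naive, OM 24h, OM 7d, MY naive, MY 24h and MY 7d). There was thus no replicate of any condition and no spread to set a difference of 2 conditions against, and no test was run. By the paper's account, an omental sample was a pool of 3 omenta. A difference below describes 2 libraries, and it was counted when it reached at least 2-fold on the log2(FPKM + 1) scale.

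Fc receptors bind the constant part of antibodies and so couple antibody-coated cells and particles to phagocytosis, cytokine release and antigen presentation in macrophages. Fcgr1 (high affinity), Fcgr3 and Fcgr4 are the activating IgG receptors of the mouse, and they signal through the common gamma chain Fcer1g, whose immunoreceptor tyrosine-based activation motif (ITAM) is phosphorylated by Src family kinases and recruits the kinase Syk. Fcgr2b, the inhibitory IgG receptor, carries an inhibitory motif (ITIM) in its own tail that recruits the phosphatase SHIP-1. Fcgrt is the heavy chain of the neonatal Fc receptor FcRn, which pairs with beta-2-microglobulin and salvages IgG and albumin from degradation. Fcrls is a receptor-like gene known from microglia and some tissue macrophages, whereas Fcrla and Fcrl1 are known from B cells.

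The stretches of coding sequence that make Fcer1g an activating chain and Fcgr2b an inhibitory receptor are shown first, since the balance between them is followed below. They were read from the mouse genome NCBIM37 (mm9) with the GENCODE M1 annotation, on the minus strand. Each spans 2 coding exons, so the interval also holds an intron. Capitals mark the tyrosine codons of the motifs. The ITAM stretch of Fcer1g lies within chr1:173160014-173160209 and the ITIM stretch of Fcgr2b within chr1:172891184-172891332.
Fcer1g: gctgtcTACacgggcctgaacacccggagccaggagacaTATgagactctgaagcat
Fcgr2b: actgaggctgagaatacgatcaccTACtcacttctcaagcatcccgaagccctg
Of the 9 coding sequences, 1 (Fcer1g) held the ITAM pattern when translated. The shorter ITIM pattern (isoleucine, leucine, valine or serine at the second place before the tyrosine, and isoleucine, leucine or valine at the third place after it) was found in 6 (Fcgr1, Fcgr2b, Fcgr4, Fcer1g, Fcgrt and Fcrla), with 3 matches in Fcgr1, so its letters alone did not set Fcgr2b apart. For the ITAM, the activating receptors Fcgr1, Fcgr3 and Fcgr4 did not, which is the arrangement of ligand-binding chains that borrow the motif from the gamma chain.

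Fcgr2b and Fcgr3 are near copies over the part that binds IgG, which matters for reading their values. Their aligned coding sequences were 84.4% identical, against 59.0% to 68.8% for the other 35 pairs of the 9 genes, and their longest identical run was 129 bases. Over the 90 coding bases shown here the genes differ at 1 base, which is in capitals. The stretch covers coding bases 362 to 451 of Fcgr2b (chr1:172896760-172898128, minus strand) and 347 to 436 of Fcgr3 (chr1:172984253-172987839, minus strand), each across 2 exons of NCBIM37.
Fcgr2b: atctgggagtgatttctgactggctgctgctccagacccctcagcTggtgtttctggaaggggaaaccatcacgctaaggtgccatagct
Fcgr3: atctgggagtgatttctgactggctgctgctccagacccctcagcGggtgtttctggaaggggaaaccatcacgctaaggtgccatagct
Of the 75-base windows of the transcripts, 6.15% of those of Fcgr2b and 7.38% of those of Fcgr3 occurred without a mismatch in the other gene, and none of those of the other 7 genes was shared with another gene. Reads that fell wholly into such windows could have been assigned to either gene, so the split between Fcgr2b and Fcgr3 is uncertain. The paper's reads were paired, and these shares are for single reads. A pair with a mate outside such windows could still be told apart, so the extent of the uncertainty was not measured.

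The genes lie in 2 clusters and at 2 single sites of NCBIM37. On chromosome 1, Fcrla (chr1:172847707-172857714, minus strand), Fcgr2b (chr1:172890689-172906678, minus), Fcgr4 (chr1:172949051-172959892, plus) and Fcgr3 (chr1:172981300-172995066, minus) follow each other, and Fcer1g (chr1:173159703-173164496, minus) lies beyond them. On chromosome 3, Fcrls (chr3:87054680-87067660, minus) and Fcrl1 (chr3:87180309-87196055, plus) flank Cd5l, and Fcgr1 (chr3:96086832-96098179, minus) lies apart. Fcgrt is on chromosome 7 (chr7:52348363-52359192, minus).

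The FPKM of the libraries summed to between 526887 and 713863, with 11043 to 12099 genes at 1 or above, and the table does not tell how many reads stand behind a value of a gene. All 8 macrophage genes that the table held of a list of 9 (among them Emr1, which encodes F4/80, Itgam, which encodes CD11b, Csf1r, Cd68 and Lyz2) were above 0 in every library, with summed FPKM of 7279 to 27205 in the omentum and 3015 to 4333 in the mesentery. Markers of other cells were present too. The summed FPKM of 8 B cell genes was 959.4 to 4255 in the omentum and 582.0 to 1679 in the mesentery, that of 6 neutrophil genes 5867 to 14551 and 229.7 to 660.5, that of 7 NK cell genes 19.2 to 279.6 and 714.1 to 1717, and that of 6 mesothelial genes 82.8 to 851.8 and 0.246 to 0.722.

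The Fc genes spanned the range from the most abundant transcripts of these cells to the limit of detection. Fcer1g was the highest of the 9 in every library and ranked between 20 and 118 of all genes by FPKM, and Fcrls in MY 7d, at an FPKM of 0.106, was the lowest single value. For 7 of the 9 genes the highest library was OM 24h. The exceptions were Fcrla, highest in OM naive, and Fcrl1, highest in MY 7d, and both were lowest in a 24h library. In RNA from a sorted population, fewer cells of a type and less RNA per cell cannot be told apart, and this holds for every value below.

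Of the 9 genes, 4 (Fcgr1, Fcgr2b, Fcgr4 and Fcrls) were higher in every omental than in every mesenteric library, against 16.7% of all 13064 expressed genes, and 0 were lower in every omental library, against 17.7%. The gap was at least 2-fold for 2 of them, Fcgr2b and Fcrls, against 2.73% of all expressed genes, and 0 were at least 2-fold lower in every omental library, against 2.12%. The 3 libraries of a tissue are different conditions and not replicates, so this describes the order of 6 libraries.

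**Figure D1:**
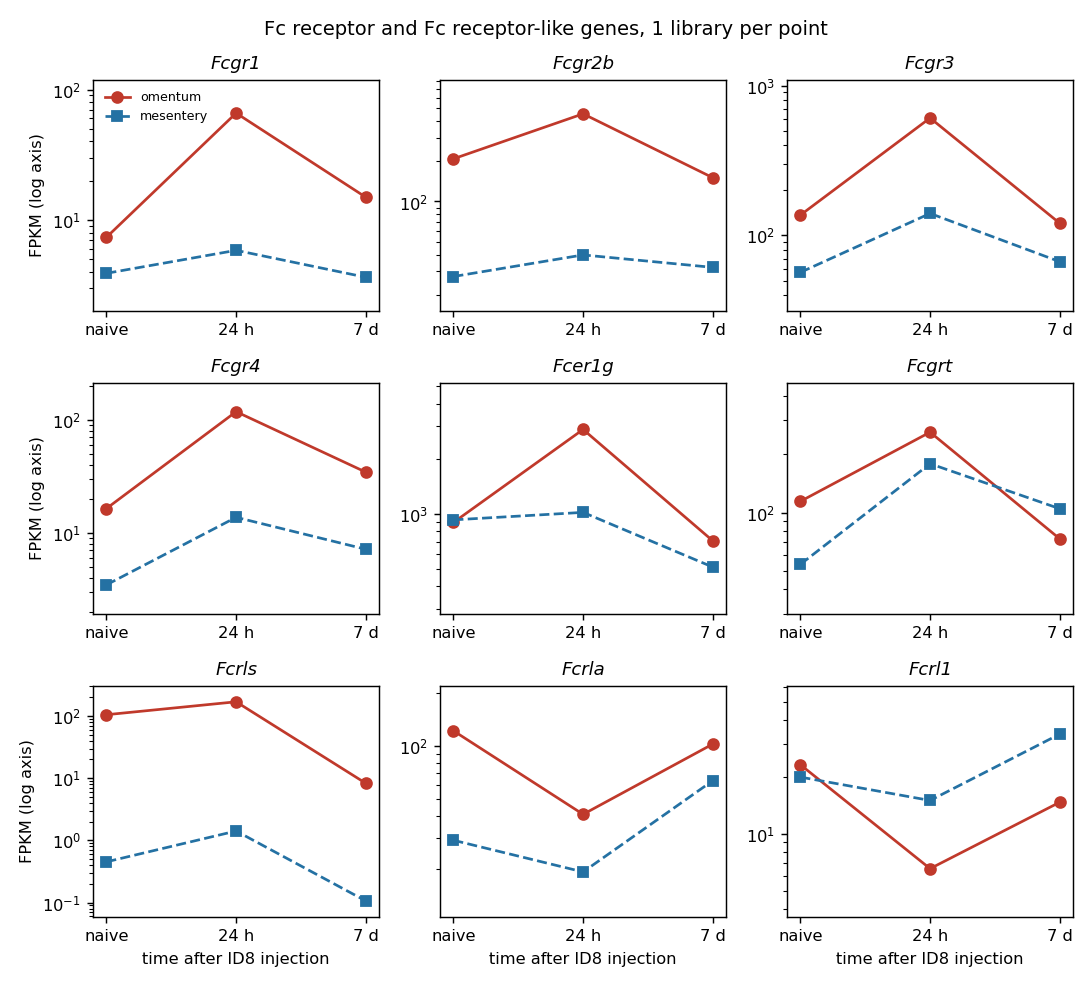
FPKM of the 9 Fc receptor and Fc receptor-like genes on log axes, with 1 panel per gene, against the time of sampling; red circles are omental and blue squares mesenteric macrophages, each point 1 library, with lines joining the libraries of a tissue. Fcgr1, Fcgr2b, Fcgr4 and Fcrls lie higher in all 3 omental than in all 3 mesenteric libraries, and Fcrla and Fcrl1 dip at 24h where the other genes peak.

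Between the tissues, the Fc genes were mostly higher in the omentum at each time. In naive cells 6 of the 9 were at least 2-fold higher in the omentum and 0 lower, against 8.18% and 8.05% of all expressed genes, with a median difference of 1.25 (log2). Of these 6, Fcgrt fell under the limit after a rescaling of each library to the same summed FPKM (0.84), and Fcgr3 (0.52) and Fcgrt (0.34) did so relative to the macrophage genes treated further below. At 24h 7 were higher, against 13.9%, and 1 (Fcrl1) was lower, against 10.2%, with a median of 2.11. At 7d 4 were higher, against 14.1%, and 1 (Fcrl1 again) was lower, against 4.99%, with a median of 0.84. The median of all expressed genes lay between -0.01 and 0.02 in each of the 7 comparisons of 2 libraries.

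After the injection, the genes moved most in the omentum and at 24h. In OM 24h 6 of the 9 were at least 2-fold above OM naive, against 11.9% of all expressed genes, and 2 (Fcrla and Fcrl1) were below it, against 6.45%, with a median of 1.18. In OM 7d 1 (Fcgr4) was above, against 11.0%, and 1 (Fcrls) below, against 1.96%, with a median of -0.33. In the mesentery 3 (Fcgr3, Fcgr4 and Fcgrt) were above naive at 24h, against 2.80%, and 0 below, against 1.52%, with a median of 0.52. At 7d 1 (Fcrla) was above, against 0.498%, and 0 were below, against 2.29%, with a median of 0.23. The comparisons of a tissue share their naive library. Changes of at least 1.5-fold in opposite directions in the tissues were seen for 0 of the 9 genes at 24h, against 1.45% of all expressed genes, and for 2 (Fcgrt and Fcrl1) at 7d, against 1.64%. A rescaling of each library to the same summed FPKM left 4 of the 6 omental 24h genes above the 2-fold limit, with Fcgr2b and Fcgrt just under it.

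**Figure D2:**
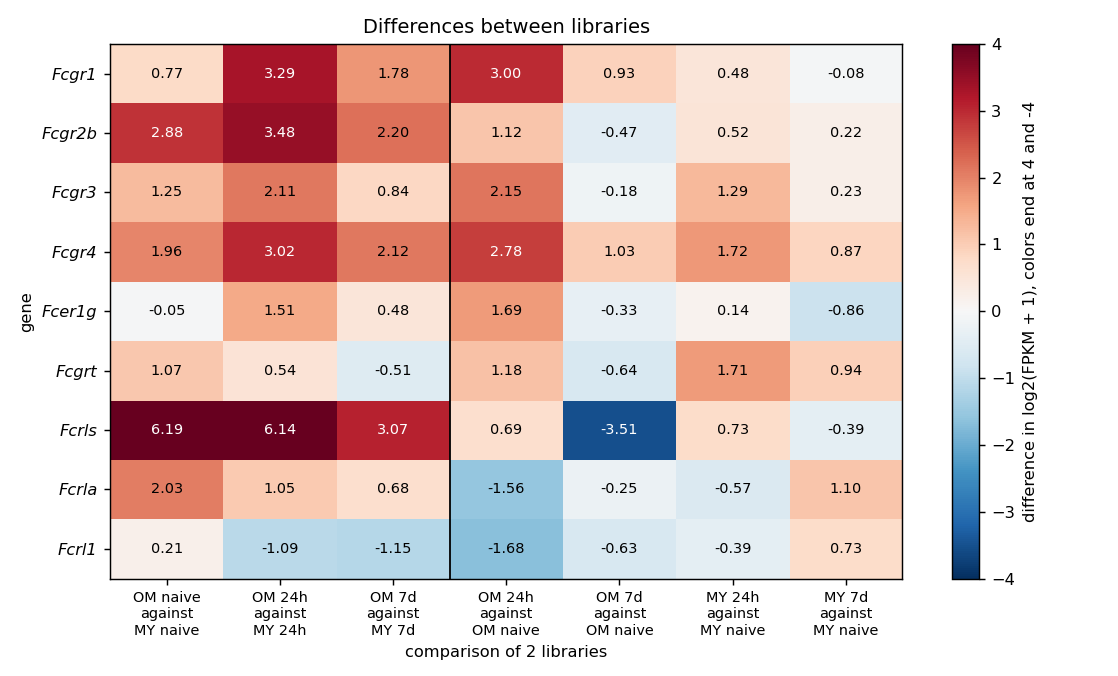
Differences in log2(FPKM + 1) between 2 libraries for the 9 genes (rows), with the 3 comparisons of omentum against mesentery on the left of the vertical line and the 4 comparisons against naive cells on its right; red is higher and blue lower in the library named first, and colors end at 4 and -4. Fcrls holds the largest values, 6.19 in naive cells and 6.14 at 24h between the tissues and -3.51 in OM 7d against OM naive.

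Of the activating receptors, Fcgr3, the low-affinity receptor for IgG complexes, was the most abundant in every library. Its FPKM was 136.6 in OM naive, 607.8 in OM 24h and 120.5 in OM 7d, and 56.7 in MY naive, 140.2 in MY 24h and 66.8 in MY 7d. MY 24h exceeded OM naive and OM 7d, so the tissues overlapped, although the omental library was the higher one at each time. Fcgr3 was higher at 24h than in naive cells by 2.15 (log2) in omental and 1.29 in mesenteric cells, and at 7d it was back near the naive level in both, at -0.18 and 0.23.

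Fcgr4, the receptor for IgG2a and IgG2b, had FPKM of 16.3 (naive), 117.7 (24h) and 34.3 (7d) in the omental libraries, while the mesenteric ones had 3.45, 13.7 and 7.12. Every omental library was above every mesenteric one, but OM naive only narrowly above MY 24h. At 24h Fcgr4 was higher than in naive cells by 2.78 (log2) in the omentum and 1.72 in the mesentery. In OM 7d it was 1.03 above naive, just past the 2-fold limit that Fcgr1 just missed, and in MY 7d it was 0.87 above.

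Fcgr1, the high-affinity receptor and a known interferon-responsive gene, was the least abundant of the 4 IgG receptors in 5 of the 6 libraries. The omental values were 7.38, 66.0 and 15.0 FPKM at the naive state, 24h and 7d, and the mesenteric ones 3.92, 5.87 and 3.65. OM 24h stood far above the other libraries. The tissues did not overlap, although OM naive lay only 0.29 (log2) above MY 24h. The 24h difference from naive was 3.00 (log2) in the omentum, the largest of the 9 genes there, against 0.48 in the mesentery, and at 7d the differences were 0.93 and -0.08. The exception to its low rank was MY naive, where it slightly exceeded Fcgr4.

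The sequences before a transcript start of Fcgr1 and Fcgr4 are shown because these 2 genes had the largest 24h differences in the omentum and the nearest profiles among the IgG receptors. The 250 bases before the start of the transcript with the longest coding sequence, 1 per gene, were searched on both strands. The first search was for GAGGAA (reverse TTCCTC), which contains the shorter GGAA core that ETS factors bind. That core alone was not searched for. The other search was for the longer GAGGAAGT (reverse ACTTCCTC) of the macrophage and B cell factor PU.1, which contains GAGGAA. Capitals mark matches. For 4 genes (Fcgr1, Fcgr2b, Fcgr3 and Fcrls) this start lies inside the interval given for the gene above, since another transcript begins further out. The 150 bases nearest the start are shown. The Fcgr1 stretch is chr3:96097893-96098042 of NCBIM37, on the minus strand, and the Fcgr4 stretch is chr1:172948901-172949050, on the plus strand.
Fcgr1: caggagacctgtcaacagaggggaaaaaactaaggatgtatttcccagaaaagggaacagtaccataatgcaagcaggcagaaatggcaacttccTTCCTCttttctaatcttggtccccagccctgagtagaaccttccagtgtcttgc
Fcgr4: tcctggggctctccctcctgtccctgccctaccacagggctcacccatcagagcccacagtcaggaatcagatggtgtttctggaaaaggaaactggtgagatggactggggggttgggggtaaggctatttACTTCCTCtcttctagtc
Counted from this start, the GAGGAA string lay at -55 to -50 in Fcgr1 and at -16 to -11 in Fcgr4. It was found in 6 members (Fcgr1, Fcgr3, Fcgr4, Fcrls, Fcrla and Fcrl1), against 22.9% of 22232 promoters of the same length, and the PU.1-like letters in 2 (Fcgr4 and Fcrl1), against 2.21%. A match describes the letters only, and their absence elsewhere says only that they are not in this window.

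The inhibitory receptor Fcgr2b had a wider gap between its lowest omental and highest mesenteric library than any activating receptor. Its FPKM was 208.7 in OM naive, 453.5 in OM 24h and 150.7 in OM 7d, while the mesenteric libraries had 27.4, 39.8 and 32.1. The lowest omental library lay 1.90 (log2) above the highest mesenteric one, and the omental library was higher by 2.88 in naive cells, 3.48 at 24h and 2.20 at 7d. Within the mesentery the 3 libraries stayed within 2-fold of each other. In the omentum Fcgr2b was 1.12 above naive at 24h and at -0.47 at 7d.

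Fcgr2b and the activating receptors were set against each other as ratios of FPKM within a library, which do not move with the scaling between libraries. The summed FPKM of Fcgr1, Fcgr3 and Fcgr4 divided by that of Fcgr2b was 0.768 in OM naive, 1.75 in OM 24h and 1.13 in OM 7d, and 2.34, 4.02 and 2.42 in MY naive, MY 24h and MY 7d. The ratio was thus lower in every omental than in every mesenteric library, and OM naive was the only library with more Fcgr2b than activating receptor transcript. In both tissues the ratio was highest at 24h. Fcgr2b made up 56.5%, 36.4% and 47.0% of the summed FPKM of the 4 IgG receptors in the omental libraries and 30.0%, 19.9% and 29.3% in the mesenteric ones.

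Taken singly, Fcgr3 was the only activating receptor whose ratio to Fcgr2b kept the tissues apart. Fcgr3 over Fcgr2b was 0.655, 1.34 and 0.799 in the omental libraries and 2.07, 3.52 and 2.08 in the mesenteric ones, with no overlap. Fcgr4 over Fcgr2b, at 0.0783, 0.260 and 0.228 against 0.126, 0.343 and 0.222, overlapped between the tissues, and so did Fcgr1 over Fcgr2b, at 0.0354, 0.146 and 0.0994 against 0.143, 0.148 and 0.114. The part of reads shared between Fcgr2b and Fcgr3 in these ratios was not tested. B cells also carry Fcgr2b, and the summed FPKM of the 8 B cell genes was 4255 in OM naive, 959.4 in OM 24h and 2617 in OM 7d, and 881.1, 582.0 and 1679 in the mesenteric libraries. The part of B cells in the Fcgr2b level was not tested. The summed FPKM of the 7 NK cell genes was 279.6, 19.2 and 138.1 in the omental and 1717, 1047 and 714.1 in the mesenteric libraries. The part of NK cells, and of the neutrophils treated below, in the Fcgr3 level and in these ratios was not tested.

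**Figure D3:**
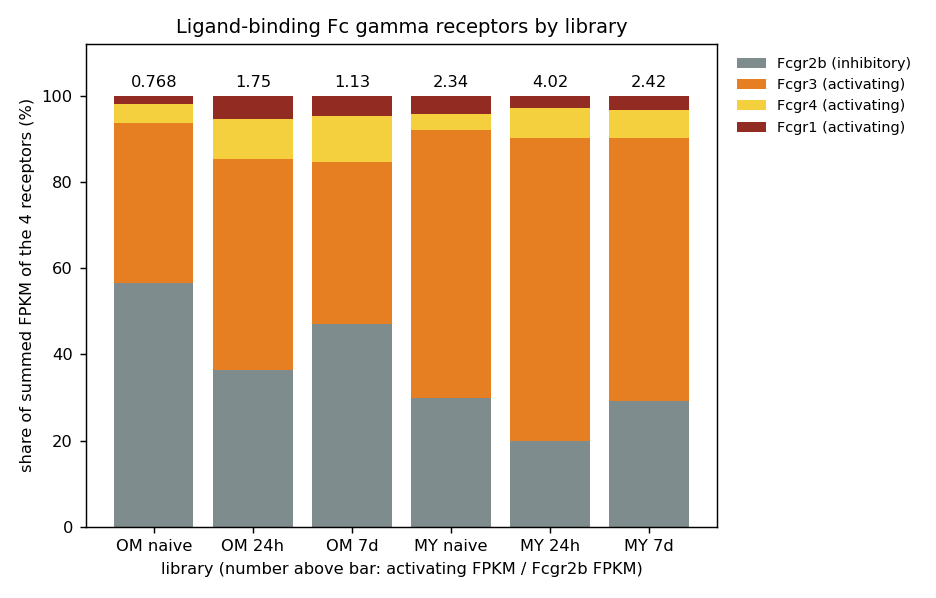
Share (%) of each ligand-binding IgG receptor in the summed FPKM of Fcgr1, Fcgr2b, Fcgr3 and Fcgr4, with 1 bar per library; the number above a bar is the FPKM of the 3 activating receptors divided by that of Fcgr2b. The Fcgr2b share runs from 36.4% to 56.5% in the omentum and from 19.9% to 30.0% in the mesentery, and Fcgr3 is the largest share in every mesenteric library.

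The signaling gamma chain Fcer1g did not follow the tissue difference of the receptors that use it. It had an FPKM of 893.8, 2889 and 708.9 in the omental and of 923.7, 1015 and 509.4 in the mesenteric libraries. Naive cells of the tissues were level, at a log2 difference of -0.05, and OM 24h alone stood apart, 1.69 above OM naive and 1.51 above MY 24h. Against the 3 receptors that borrow it, the gamma chain was in excess in every library: its FPKM was 5.57, 3.65 and 4.18 times the summed FPKM of Fcgr1, Fcgr3 and Fcgr4 in the omentum and 14.4, 6.36 and 6.57 times in the mesentery. Tyrobp (DAP12), the other ITAM adaptor of myeloid cells, was of similar abundance, and the ratio of Fcer1g to Tyrobp lay between 0.684 and 1.23, highest in OM 24h.

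The gamma chain also serves receptors that do not bind antibody. Of 7 such genes listed, 5 were expressed, and OM 24h had 3 of them at least 2-fold above OM naive and 1 below it. Clec4n (Dectin-2) went from 7.72 FPKM in OM naive to 124.2 in OM 24h and 21.5 in OM 7d, with 38.4, 60.3 and 34.6 in the mesentery, and Clec4e (Mincle) from 6.06 to 27.6 and 17.6, with 1.92, 3.08 and 1.46 in the mesentery. Ncr1, an NK cell receptor, was the gene that was lower, at 26.2 FPKM in OM naive and 0.612 in OM 24h. NK cells express Fcer1g as well, and the summed FPKM of the 7 NK cell genes was 279.6, 19.2 and 138.1 in the omental and 1717, 1047 and 714.1 in the mesenteric libraries. Their part in the Fcer1g level was not tested.

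Fcgrt, the FcRn heavy chain, changed its order between the tissues with time. Its FPKM was 114.2 in OM naive, 260.4 in OM 24h and 73.1 in OM 7d, and the mesenteric libraries had 53.9, 178.8 and 104.6. The omentum was higher by 1.07 (log2) in naive cells and by 0.54 at 24h, and the difference was -0.51 at 7d. Both tissues were at least 2-fold above naive at 24h, by 1.18 in the omentum and 1.71 in the mesentery. At 7d Fcgrt was at -0.64 against naive in the omentum and at 0.94 in the mesentery. Its light chain B2m was far more abundant and nearly level, between 3286 and 5127 FPKM, and the ratio of B2m to Fcgrt lay between 19.7 in OM 24h and 89.6 in MY naive.

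Fcrls varied most of the 9 genes. Its FPKM was 104.9 in OM naive, 169.3 in OM 24h and 8.27 in OM 7d, against 0.451 in MY naive, 1.41 in MY 24h and 0.106 in MY 7d, a range of 1596-fold from the lowest to the highest library. The lowest omental library, OM 7d, was still 1.94 (log2) above the highest mesenteric one. The omentum was higher by 6.19 in naive cells, by 6.14 at 24h and by 3.07 at 7d. Of the mesenteric values, 2 were below 1 FPKM, where the pseudocount shrinks a difference, so the size of these log2 values depends on it.

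Within the omentum, Fcrls was 0.69 (log2) above naive at 24h and lower by 3.51 at 7d (a log2 difference of -3.51), when its FPKM was 12.7 times lower than in OM naive. It shared that fall with genes of resident tissue macrophages. All 7 genes of a list of such markers (Cd163, Timd4, Lyve1, Folr2, Mrc1, Cd209f and Cd209g) were at least 2-fold lower in OM 7d than in OM naive, with a median of -2.19. In OM 24h 4 of them were higher and 0 lower, with a median of 1.24, and between the naive libraries 6 were higher in the omentum and 0 lower, with a median of 1.91. Their summed FPKM was 220.8, 426.4 and 40.9 in the omental and 46.6, 93.7 and 50.7 in the mesenteric libraries. The sum of the list separated the tissues less than Fcrls did, since in OM 7d it was below that of every mesenteric library. Timd4 was the largest part of the mesenteric sums, at 23.5, 38.8 and 27.3 FPKM, and had 5.30 in OM 7d. Between the 7d libraries 1 gene of the list (Lyve1) was at least 2-fold higher in the omentum and 1 (Timd4) lower, with a median of 0.72. Lyve1, a hyaluronan receptor of perivascular and serosal macrophages, was the list member with the widest gap between the tissues, at 53.5, 55.3 and 5.96 FPKM in the omentum and 2.26, 1.79 and 1.04 in the mesentery. Folr2, a folate receptor, had 81.6, 220.0 and 14.5 FPKM against 9.86, 25.7 and 8.45.

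Fcrls is best known from microglia, but other signature genes of those cells differed from it at 7d. Sall1, the defining transcription factor of microglia, was listed at 0 in all 6 libraries. Of 9 listed genes 7 were expressed, and none of them was at least 2-fold lower in OM 7d than in OM naive while 2 were higher. Tmem119 had 15.4, 97.4 and 118.2 FPKM in the omental and 1.60, 4.80 and 2.14 in the mesenteric libraries, so it was highest in OM 7d, where Fcrls was lowest for its tissue. P2ry12 had 2.71, 16.3 and 2.84 FPKM in the omental libraries and was higher in the mesentery at the naive state and at 7d, at 6.51 and 7.66, with 11.9 in MY 24h. The mesothelial genes, which were also higher in OM 24h and OM 7d than in OM naive, had summed FPKM of 82.8, 841.5 and 851.8 in the omentum, and their part was not tested.

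The neighbors of Fcrls on chromosome 3 did not share its pattern either. Cd5l, the next gene on the side of Fcrl1 and a secreted scavenger protein of macrophages, had 5.97, 16.5 and 1.40 FPKM in the omental and 29.8, 103.3 and 47.7 in the mesenteric libraries. It was lower in every omental than in every mesenteric library, opposite to Fcrls. Cd1d1, a lipid antigen-presenting molecule on the other side, was also lower in every omental library, at 11.1 to 16.5 FPKM against 51.8 to 120.7. Kirrel, which lies between Cd1d1 and Fcrls, did not exceed 0.0956 FPKM in the mesentery and reached 3.29 in OM 7d. Beyond Fcrl1, Fcrl5 was higher in every omental library, at 9.49 to 55.6 FPKM against 1.69 to 5.75, and Etv3 was lower in every one, at 16.7 to 21.2 against 47.7 to 74.7. Genes that lie side by side here thus differed in opposite directions between the tissues.

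The stretch before the start of the Fcrls transcript with the longest coding sequence is shown because this gene carried the widest tissue difference. It is chr3:87067522-87067596 of NCBIM37, 75 bases on the minus strand inside the interval of the gene, with GAGGAA in capitals, at -69 to -64 from that start.
Fcrls: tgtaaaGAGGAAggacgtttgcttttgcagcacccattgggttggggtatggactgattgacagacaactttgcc
The GAGGAA string was found in 6 of the 9 genes, whatever their pattern over the libraries, and in 22.9% of all promoters.

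Fcrla and Fcrl1, known from B cells, went the other way at 24h. Fcrla, which encodes an intracellular protein that binds immunoglobulin in B cells, had an FPKM of 122.3, 40.9 and 102.8 in the omental and of 29.1, 19.2 and 63.6 in the mesenteric libraries. Fcrl1, a surface receptor that augments B cell signaling, had 23.2, 6.53 and 14.7 in the omental and 20.0, 15.0 and 33.8 in the mesenteric libraries. Both genes were lower at 24h than in naive cells, in the omentum by at least 2-fold (-1.56 and -1.68 on the log2 scale) and in the mesentery by less (-0.57 and -0.39). At 7d in the mesentery, Fcrla was 1.10 and Fcrl1 0.73 above naive.

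After the injection both genes moved in the direction of the B cell list. In OM 24h all 8 B cell genes were at least 2-fold below OM naive, with a median of -2.01, and in OM 7d 1 was below, with a median of -0.74. In the mesentery the medians were -0.55 at 24h, with 0 genes past the limit, and 0.86 at 7d, with 2 higher. Set against Cd79a, a signaling chain of the B cell receptor, Fcrla was nearly constant, with a ratio of FPKM of 0.0789, 0.104 and 0.105 in the omental and 0.0866, 0.0867 and 0.10 in the mesenteric libraries. Between the tissues the pair split. Fcrla was 2.03 (log2) higher in the omentum in naive cells, when 7 of the 8 B cell genes were higher with a median of 1.75, whereas Fcrl1 differed by 0.21 and was lower in the omentum at 24h (-1.09) and at 7d (-1.15). The ratio of Fcrla to Fcrl1 was 5.26, 6.26 and 6.99 in the omental and 1.46, 1.28 and 1.88 in the mesenteric libraries, without overlap.

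Other genes of B cells showed that both directions occurred. Cr2, a complement receptor, had 6.39, 0.844 and 3.18 FPKM in the omental and 8.44, 5.66 and 17.8 in the mesenteric libraries, and Fcer2a, the low-affinity IgE receptor of follicular B cells, had 20.2, 3.03 and 7.31 against 51.8, 25.9 and 93.0. These genes stood with Fcrl1, lower in the omentum than in the mesentery at 24h and 7d. Fcrl5, another receptor-like gene of B cells, and Ms4a1 (CD20), at 882.9, 158.3 and 500.7 against 88.8, 47.1 and 218.6 FPKM, stood with Fcrla, higher in the omentum at each time.

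**Figure D4:**
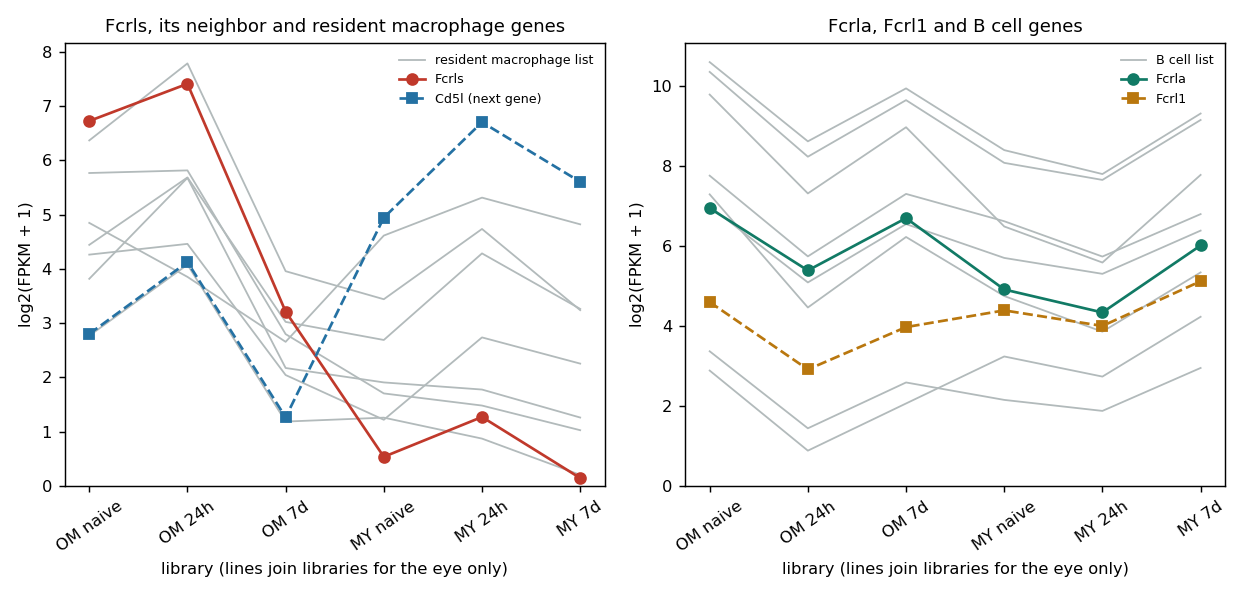
Levels in log2(FPKM + 1) in the 6 libraries; left, Fcrls (red) with its neighbor Cd5l (blue) and 7 resident macrophage genes (gray); right, Fcrla (green) and Fcrl1 (orange) with 8 B cell genes (gray). Fcrls falls with the gray genes in OM 7d while Cd5l is higher in every mesenteric library, and Fcrla and Fcrl1 dip with the B cell genes in OM 24h.

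The remaining Fc receptor and Fc receptor-like genes included genes of B cells and mast cells and genes near the limit of detection. Of 11 listed, 10 were in the table and 8 were expressed. In OM 24h 5 of these 8 were at least 2-fold below OM naive and 1 above, with a median of -1.84. Faim3, the IgM Fc receptor, was the most abundant, at 473.8, 55.7 and 165.3 FPKM in the omental and 114.9, 74.5 and 297.1 in the mesenteric libraries. The gene that was higher, Fcrlb, is the neighbor of Fcrla, at 1.44 FPKM in OM naive and 4.90 in OM 24h. The chains that form the high-affinity IgE receptor with Fcer1g were low, with Fcer1a at no more than 3.13 FPKM and Ms4a2 at no more than 0.457, beside summed FPKM of 20.7 to 91.0 for 6 mast cell genes in the omentum and 40.9 to 72.0 in the mesentery. The sum of 20.7 was that of OM 24h, where Hdc had 16.3 FPKM and Kit 3.95. Cpa3, Cma1, Tpsb2 and Mcpt4 lay between 0 and 0.169 in that library. Trim21, the cytosolic Fc receptor, lay between 9.67 and 19.2 FPKM.

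Of 24 ITAM kinases and adaptors, which act downstream of the receptors, OM 24h had 4 at least 2-fold above OM naive and 4 below it, with a median of -0.33, and 5 were higher and 5 lower between the naive tissues, with a median of 0.40. In each of the other 5 comparisons 0 or 1 of them were higher and 1 to 3 lower. Syk, the kinase that binds the phosphorylated ITAM, was lowest in the omental library in which the activating receptors were highest, at 180.5 FPKM in OM naive, 59.4 in OM 24h and 86.3 in OM 7d, and it stayed between 52.8 and 56.5 in the mesentery. Lyn, a Src family kinase, had 206.6, 173.0 and 137.2 FPKM in the omentum and 77.7, 122.2 and 118.7 in the mesentery. B cells use both kinases, and the part of the B cell genes in these levels was not tested. The 4 that were higher in OM 24h were Tyrobp, Lcp2, Card9 and Src. Tyrobp had 980.2, 2352 and 970.0 FPKM in the omental and 1159, 1455 and 745.0 in the mesenteric libraries. Lcp2 (SLP-76), an adaptor, had 31.9, 65.3 and 37.1 in the omentum, and Card9, an adaptor of ITAM-coupled receptors, had 1.65, 5.77 and 2.90, so these 2 were also lower again in OM 7d, while Src had 0.743, 2.96 and 2.92.

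Of 11 phosphatases and adaptors of the inhibitory arm, OM 24h had 1 above OM naive and 2 below it, with a median of -0.09. Inpp5d (SHIP-1), the phosphatase recruited by the Fcgr2b motif, stayed between 55.4 and 78.4 FPKM in all 6 libraries, while Fcgr2b spanned 16.5-fold. Dok2, an adaptor that restrains Ras signaling, was the gene that was higher, at 89.5, 227.3 and 33.9 FPKM in the omentum, with 96.3, 97.7 and 59.8 in the mesentery. Of 17 genes of the phagocytic cup, which reshape actin and build the NADPH oxidase, OM 24h had 0 above OM naive and 2 below it, with a median of 0.06. Cybb, the catalytic chain of the oxidase, was the gene of this list that was at least 2-fold higher in the omentum in naive cells, at 141.3, 243.7 and 143.3 FPKM in the omentum against 36.8, 60.7 and 65.3 in the mesentery.

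The Fc genes were next set against the macrophage list, because its genes also differed between the libraries. This reference subtracts the same amount from every gene, so each count below is given beside that of all expressed genes under the same reference. In OM 24h 7 of the 8 macrophage genes were at least 2-fold above OM naive, with a median of 1.96. Against that median, Fcgr1 was still higher by 1.04 and Fcgr4 by 0.82, and Fcgr3 was level at 0.19. The other values were -0.27 for Fcer1g, -0.78 for Fcgrt, -0.84 for Fcgr2b, -1.27 for Fcrls, -3.51 for Fcrla and -3.64 for Fcrl1. Thus 1 of the 9 was at least 2-fold higher, against 0.987% of all expressed genes, and 3 were lower, against 87.4%, since a gene without any difference counts as lower here. In MY 24h 5 of the 8 macrophage genes were higher, with a median of 1.24. Against it 0 of the 9 Fc genes were at least 2-fold higher, against 0.299% of all expressed genes, and 3 (Fcer1g, Fcrla and Fcrl1) were lower, against 74.4%.

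Between the tissues, the median of the macrophage list was 0.73 in naive cells. Relative to it 4 of the 9 genes were at least 2-fold higher in the omentum, against 3.41% of all expressed genes, and 0 lower, against 28.8%, and the 4 were Fcgr2b (2.15), Fcgr4 (1.23), Fcrls (5.46) and Fcrla (1.30). At 24h, where the median of the list was 1.24, Fcgr1 was higher by 2.04, Fcgr2b by 2.24, Fcgr4 by 1.78 and Fcrls by 4.90 in the omentum, and Fcgr3 by 0.87, while Fcrla was at -0.19. These were 4 genes at least 2-fold higher, against 3.90%, and 1 (Fcrl1) was lower, against 63.6%. At 7d 4 were higher, against 15.7%, and 1 was lower, against 4.27%, the same counts as without the reference. Within the omentum the list was near level at 7d (median -0.27 against naive), and Fcgr1, at 1.20, and Fcgr4, at 1.30, were the 2 genes higher than it, against 15.2%, with 1 lower (Fcrls), against 1.03%. In MY 7d 0 were higher, against 0.207%, and 1 (Fcer1g, at -1.17) was lower, against 5.67%.

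**Figure D5:**
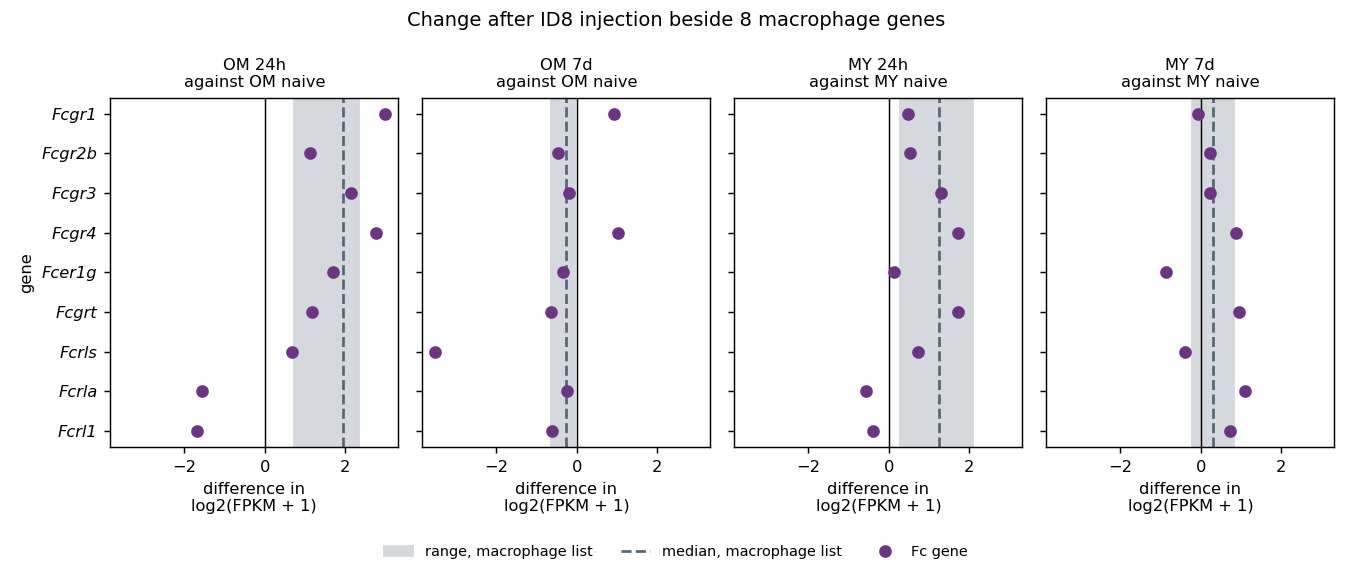
Differences from naive cells in log2(FPKM + 1) for the 9 genes (purple points) in the 4 injected libraries, with the range (gray band) and the median (dashed line) of 8 macrophage genes in the same comparison. In OM 24h the median of the macrophage genes is 1.96, with Fcgr1 at 3.00 and Fcgr4 at 2.78 to the right of the band and Fcrla and Fcrl1 on the other side of 0, and in OM 7d Fcrls lies far to the left at -3.51.

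Other cell types moved in the same comparison. In OM 24h against OM naive 6 of 6 neutrophil genes were at least 2-fold higher, with a median of 1.20, 7 of 7 NK cell genes were lower, with a median of -2.67, and 5 of 6 mesothelial genes were higher, with a median of 3.09. Neutrophils carry Fcgr3 and Fcgr4, and their genes had summed FPKM of 5867, 13653 and 14551 in the omental and 617.7, 660.5 and 229.7 in the mesenteric libraries. Most of this sum came from S100a8 and S100a9, and the other 4 genes (Retnlg, Cxcr2, Csf3r and Mmp8) were lower in OM 7d than in OM 24h, with Retnlg at 872.4 FPKM in OM 24h and 500.8 in OM 7d. The classical monocyte genes had 1713, 1682 and 2222 against 666.6, 514.1 and 707.0. The part of these cells in the Fc receptor levels was not tested.

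The genes with the profiles most like each Fc gene were found among the 7998 genes that reached an FPKM of 10 in any library. The measure was the root mean square difference of the log2(FPKM + 1) values over the 6 libraries after centering each gene on its mean, so that 0 is an identical shape. The nearest gene to Fcgr1 was Fam20c, at 0.15, followed by Ms4a6d (0.19) and Gdf3 (0.25). Fcgr4 had Ms4a6d (0.30) and Tgfbi (0.40) nearest, with Fcgr1 itself in the fifth place at 0.44, the only case in which 1 of the 9 genes was among the 5 nearest to another. Fcgr3 had F10 (0.22) and Slc7a8 (0.23), and Fcgr2b had Clec4a2, an inhibitory lectin, (0.25) and Mmp9, a gelatinase, (0.26). The nearest genes to Fcer1g were the transcription factor Maf (0.15) and Rab11fip5 (0.17), and those to Fcgrt were Cd300ld (0.20) and Man1c1 (0.26).

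For the receptor-like genes the nearest profiles were of unlike closeness. Fcrl1 had Foxo1, a transcription factor, at 0.10, the smallest distance of all, and Fcrla had Cd79a (0.15) and Cd79b (0.19), the signaling chains of the B cell receptor. Fcrls had no near match by this distance, which is not scaled to the range of a gene. Its closest gene was the complement receptor Vsig4 of resident macrophages, at 0.75. Vsig4 had 27.8, 37.2 and 1.53 FPKM in the omental libraries and 0.0374 in MY naive and 0 in MY 24h and MY 7d. The next was Pf4, at 0.84, with 167.4, 601.1 and 25.8 FPKM in the omentum and 2.79, 23.9 and 1.52 in the mesentery. The Pearson correlation with Fcrls over the 6 libraries was 0.987 for Vsig4 and 0.990 for Lyve1, the highest by that measure. With 6 libraries and 7998 genes, a near profile is easily found, and by Pearson correlation only 0 to 2 of the 5 genes nearest to a member were the same.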

How the data were processed

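RNA of sorted macrophages was measured in 6 libraries, 1 for each tissue and time. The authors deposited FPKM per gene symbol, made with Cufflinks from reads aligned with STAR. The submitters' processing notes name FastQC 0.11.4, STAR 2.4.2a and the mouse build mm9. The methods also describe read counts tested with DESeq2, which were not used here. FPKM are not counts, so no count test was run. With 1 library per condition, single conditions could not be tested against each other. A fit of tissue with time as a block would leave 2 residual degrees of freedom and take the tissue-by-time differences as its error, and it was not run. The methods state the reads per library only as a range, and the table does not give the depth of a value. The commonest ratio of low FPKM values put the libraries at 0.859 to 1.49 times the depth of MY naive.

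A pseudocount of 1 was added to the FPKM before taking log2, so differences of low genes are understated, and genes that reached an FPKM of 1 in any library were kept (Python 3.11.15, numpy 2.4.6, pandas 2.3.3, figures with matplotlib 3.10.9). The whole table was processed and a difference of at least 2-fold counted. The scripts were tested on simulated data. The members and gene lists were chosen with earlier results of these data known. Named were the 9 members, the genes of the lists, their neighbors in the 2 clusters and the 5 nearest profiles per member.

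Positions and sequences come from NCBIM37 with GENCODE M1, which is not the UCSC annotation of the authors. Promoter windows were the 250 bases before the start of the transcript with the longest coding sequence. The alternatives were pseudocounts of 0.1 and 5, other filters, 2 rescalings of the libraries and differences relative to the macrophage list. Some genes and 1 promoter motif are not reported here.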

Additional observations from a re-analysis of the deposited data

Results flagged for a closer look

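For 2 of the genes the 7d libraries of the tissues differed from naive in opposite directions, each by a small amount. Fcgrt was at -0.64 (log2) in the omentum and at 0.94 in the mesentery, a difference between the tissues of -1.58. Fcrl1 was at -0.63 in the omentum and at 0.73 in the mesentery, a difference of -1.35. Opposite changes of at least 1.5-fold in each tissue were found for 1.64% of all expressed genes at 7d. With 1 library per condition the difference was not tested.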

How the results depend on the processing

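Of 434 recomputed log2 differences of the members, 388 moved by less than 1.5-fold, 42 moved by more than that, 32 of them relative to the macrophage list, and 4 counted differences changed sign. For none of these was a cause tested. All 4 were taken relative to the macrophage list: Fcrla in OM 24h against MY 24h (-0.19), and Fcgr2b (-0.84), Fcer1g (-0.27) and Fcgrt (-0.78) in OM 24h against OM naive. Relative to that list the number of members higher became 4 in OM naive against MY naive (without Fcgr3 and Fcgrt), 4 in OM 24h against MY 24h and, against naive, 1 (OM 24h), 2 (OM 7d), 0 (MY 24h) and 0 (MY 7d), and the number lower became 3 (MY 24h) and 1 (MY 7d). This reference put the median of all expressed genes at -0.72 in OM naive and -1.24 in OM 24h against the mesentery, while against naive it lay at -1.96 (OM 24h) and -1.24 (MY 24h). With a pseudocount of 5, Fcrl1 was no longer counted between the tissues (0 lower at 24h and 0 at 7d), and 0 members were higher in OM 7d against naive. With a pseudocount of 0.1, 2 members were higher in OM 7d (Fcgr1 joined Fcgr4), and 2 were higher and 1 (Fcrls) lower in MY 7d. A rescaling of each library to the same summed FPKM gave 2 higher in OM 7d and 5 in OM naive against MY naive, and it shifted the median of all genes by -0.19 in OM naive against MY naive, -0.27 in OM 24h against MY 24h, -0.17 in OM 24h and 0.12 in OM 7d against naive. Requiring all 6 libraries to reach an FPKM of 1 removed Fcrls, which left 0 lower in OM 7d and 1 member at least 2-fold higher in every omental library. When the libraries of 1 time were left out, members at least 2-fold higher in every omental library numbered 2 to 4 (4 without the naive libraries, with Fcgr1 and Fcgr4 added), members higher without overlap 4 to 6, and members lower without overlap 0 to 1 (Fcrl1, without the naive libraries). With fewer libraries an order without overlap is reached more easily, and the share of all expressed genes was not computed there. It was also not computed for the other pseudocounts, the rescalings and the filters. The counts under these settings therefore cannot be set beside the shares given above. The Fcrls differences between the tissues ranged from 1.38 at 7d with a pseudocount of 5 to 7.57 in naive cells with one of 0.1. No paired analysis was possible because replicate numbers pair nothing where a condition holds 1 library. Pairing the tissues by time in a fit across genes was not run. The main limits are the single library per condition, the reads behind each value, which the table does not give, the shared sequence of Fcgr2b and Fcgr3, and the markers of other cells in the sorted populations.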

Other observations

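Sdhc, a subunit of succinate dehydrogenase that lies beyond Fcgr3 on chromosome 1, had 107.6, 179.0 and 112.5 FPKM in OM naive, OM 24h and OM 7d and 110.4, 114.2 and 110.4 in the mesenteric libraries. It varied less than any of the 9 Fc genes, whose highest library exceeded the lowest by 4.83-fold (Fcgrt) to 1596-fold (Fcrls).

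Lat, the adaptor that mast cells and T cells use downstream of ITAM receptors, was the gene of the kinase and adaptor list with the widest tissue difference, lower in every omental library. Its FPKM was 11.5, 1.28 and 12.4 in the omental and 183.2, 88.2 and 138.8 in the mesenteric libraries. The 6 T cell genes had summed FPKM of 134.0, 26.8 and 125.7 against 999.6, 566.0 and 1145, and their part in the Lat level was not tested.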
